A study of Mus musculus with 46 samples.

Results

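The genes described here make and load MHC class I molecules: the heavy chains H2-K1, H2-D1, H2-T23 and H2-M3, the light chain B2m, the peptide transporter subunits Tap1 and Tap2, the loading factor Tapbp, and the immunoproteasome subunits Psmb8 and Psmb9. They were taken by symbol from the FPKM tables of 3 mouse experiments, and all 10 were found in each table, of 21231 distinct gene IDs listed over the 3 tables. RNA was sequenced from 46 libraries. SVZ tissue came from control mice, mice fed the CSF1 receptor inhibitor PLX3397 for 14 days, and mice returned to control chow for 5 days after those 14 days (n = 5 each). CD11b+CD45int myeloid cells were sorted from whole hemispheres of mice 2 months of age when treatment began, before or after intraperitoneal LPS (0.33 mg/kg). Control microglia gave 3 libraries at 0 hr, 5 at 6 hr and 4 at 24 hr, and white matter (WM) repopulating cells, from mice with 14 days of PLX3397 and 28 days of recovery, gave 4 at each time. The 0 hr mice received no LPS. In the GLOBAL experiment the same kind of sorted cells came from mice of the same starting age, either control (n = 4) or with 7 days of PLX3397 and 28 days of recovery (n = 3), without LPS. All mice were C57BL/6, per the labels, and PLX3397 was given in chow at 600 ppm. The control group of an experiment serves in each of its comparisons, so these are not independent of each other.

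Almost every nucleated cell displays fragments of its own proteins on MHC class I molecules, which CD8 T cells inspect. Proteasomes cut the proteins, the TAP transporter moves the peptides into the endoplasmic reticulum, and tapasin, the product of Tapbp, helps to fit them into a heavy chain paired with beta-2 microglobulin. Interferons induce most of the pathway, including the immunosubunits that replace the constitutive catalytic subunits of the proteasome. Apart from B2m, the genes lie in the MHC region of chromosome 17. In GRCm38.p6, Psmb9 (chr17:34182030-34187330), Tap1 (chr17:34187556-34197225), Psmb8 (chr17:34198195-34201454) and Tap2 (chr17:34204479-34216321) are neighbours, with H2-K1 (chr17:33996012-34000619) and Tapbp (chr17:33919478-33929290) on one side and H2-D1 (chr17:35263094-35267497), H2-T23 (chr17:36029977-36032701) and H2-M3 (chr17:37270234-37274485) on the other. B2m is at chr2:122147687-122153082.

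Promoter sequences from RefSeq (GRCm38.p6, 250 bases before to 50 after a start) were found for 9 of the 10 genes, all but Tap2. Stretches of them are shown as a description, and their part in the results below was not tested. Each stretch is written 5′ to 3′ on the strand of its gene, from 10 bases before its first match to 10 after its last, with matches in capitals, except that the H2-M3 stretch leaves out a match farther upstream, named below.
H2-K1: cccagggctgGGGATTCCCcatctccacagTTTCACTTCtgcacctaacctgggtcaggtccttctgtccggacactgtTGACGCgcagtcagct
H2-D1: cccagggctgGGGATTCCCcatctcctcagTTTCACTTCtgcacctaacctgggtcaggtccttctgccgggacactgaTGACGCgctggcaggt
H2-M3: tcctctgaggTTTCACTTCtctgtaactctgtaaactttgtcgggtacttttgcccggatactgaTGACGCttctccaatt
B2m: ataagaacatGAAACTGAAaatgggaaag
H2-T23: tcctactgctTTCTCTTTCataaagacac
Psmb8: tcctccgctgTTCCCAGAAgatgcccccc
These stretches are at chr17:34000373-34000467 (minus strand), chr17:35262914-35263008, chr17:37270123-37270203, chr2:122147538-122147566, chr17:36032806-36032834 (minus strand) and chr17:34198088-34198116.

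RefSeq gives H2-K1 a pair of start sites, and its stretch is the same before both. The H2-K1 and H2-D1 stretches share 88 of 95 bases (92.6%), and both hold the NF-kB type letters GGGATTCCC, an interferon-type element read as GAANNGAAA on the opposite strand, and the CRE-like core TGACGC. The H2-M3 stretch has the same GAANNGAAA match and the same TGACGC core, without GGGATTCCC. B2m and H2-T23 instead have GAAANNGAA (H2-T23 on the opposite strand), another interferon-type form, and neither form contains the other. Psmb8 has TTCNNNGAA, the letters of a GAS-type element, which also occurs once farther upstream in H2-M3. Both strands were searched, and over all 32851 promoters of the table the letters occur in 0.353% (GGGATTCCC), 7.52% (GAANNGAAA), 7.4% (TGACGC), 8.56% (GAAANNGAA) and 8.3% (TTCNNNGAA). The letters were chosen after these promoters had been searched, and a match describes the letters only. Tap1 and Psmb9 start back to back, and the 225 bases between them (chr17:34187331-34187555, strand of Tap1), printed because the pair shares them, hold none of these letters: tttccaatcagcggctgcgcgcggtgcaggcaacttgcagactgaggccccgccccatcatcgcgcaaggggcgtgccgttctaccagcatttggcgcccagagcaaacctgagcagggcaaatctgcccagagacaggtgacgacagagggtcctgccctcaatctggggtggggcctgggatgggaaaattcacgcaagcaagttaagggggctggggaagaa.

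The libraries held 4574000 to 10609000 reads in the SVZ experiment, 5238000 to 10380000 in the LPS experiment and 2206000 to 5373000 in the GLOBAL experiment, as recovered from the steps between low values. A gene in the group had 10 to 963 reads per library in SVZ tissue, against 216 to 47756 in the LPS experiment and 101 to 14710 in the GLOBAL experiment, so counting error weighs most on the SVZ values. FPKM scales the reads of a gene by its length and by the depth of the library, so levels of different genes can be set side by side. The sorted cells carried the defining microglia genes, with summed FPKM of 8 microglia markers of 19089 to 22265 in control 0 hr libraries, and also transcripts of neutrophils, whose 5 markers summed to 1544 to 7224 FPKM there. Control 6 hr replicate 2 and control 24 hr replicate 4 correlated least with their own groups. Their mean r over all tested genes was 0.938 and 0.947, against 0.955 to 0.979 for the other libraries of that experiment. Several results that rest on them, or only share their estimate of spread, are also given without them. In SVZ control replicate 1 the 3 choroid plexus markers summed to 21239 FPKM, against a group median of 34.2. H2-K1, H2-D1 and the other class I heavy chains are near copies of each other, so reads may be split between them and their separate levels are uncertain.

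B2m was the highest of the 10 genes in every group of every experiment. In control microglia at 0 hr it was at 3409.9 ± 287 FPKM (mean ± SD, n = 3), and the order below it was H2-K1 (509 ± 68.6), H2-D1 (371 ± 29.3), Tapbp (251 ± 9.23), Psmb8 (232 ± 26.1), Psmb9 (133 ± 4.8), H2-T23 (94.3 ± 4.67), H2-M3 (55 ± 6.09), Tap2 (42.5 ± 10.6) and Tap1 (23.1 ± 11.1). The ranges of neighbours in this order overlapped for Tapbp and Psmb8, for H2-M3 and Tap2, and for Tap2 and Tap1, and for no other pair. In SVZ control tissue B2m was at 141 ± 19.7 FPKM (n = 5), H2-D1 at 36.8 ± 2.17, Tapbp at 24.6 ± 6.51, H2-K1 at 22 ± 4.17, H2-T23 at 11.8 ± 1.34 and Psmb8 at 6.66 ± 0.948, followed by Tap2 (6.2 ± 0.987), Psmb9 (4.25 ± 2.01), H2-M3 (4.1 ± 0.603) and Tap1 (1.71 ± 0.422). There the ranges overlapped for H2-D1 and Tapbp, Tapbp and H2-K1, and each pair of neighbours from Psmb8 to H2-M3. In SVZ tissue H2-K1 lay below H2-D1, with ranges that did not overlap, whereas in the sorted control cells it lay above. The tables were normalized separately, so these levels stand side by side without a test.

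SVZ tissue was compared to see how the pathway reads when microglia are removed by PLX3397 and begin to return. After 14 days of PLX3397, B2m and Psmb8 fell, and none of the other 8 genes passed the test. Microglia markers had almost vanished, with Cx3cr1 at 0.223% ± 0.32 and P2ry12 at 1.88% ± 0.777 of the control mean (SD, n = 5), while B2m kept 64.7% ± 5.35 and Psmb8 51.2% ± 11.7. The heavy chains H2-K1 and H2-D1 kept 90.2% ± 12.4 and 94.6% ± 8.46.

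B2m, the light chain shared by all class I molecules, was at 169, 134, 152, 132 and 118 FPKM in the control tissue. After 14 days of PLX3397 it was at 86.6, 84.4, 91.7, 89.1 and 104, and at 5 day recovery at 105, 89.4, 94.3, 91.6 and 104. Every PLX3397 and every recovery library was below every control library. Log2 changes were taken on FPKM plus 1, which understates those of genes at a few FPKM, and adjusted p values are from limma over all genes. Under PLX3397 the log2 change of B2m was -0.62 (SE 0.09, adjusted p = 7.6e-04), and at 5 day recovery it was still -0.53 (SE 0.09, adjusted p = 0.0042). Recovery and PLX3397 libraries overlapped, with a log2 difference of 0.09 (SE 0.09, adjusted p = 0.67).

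Psmb8, the immunosubunit that takes the place of Psmb5, was at 6.18, 5.36, 7.5, 6.63 and 7.65 FPKM in control tissue. It was at 3.18, 3.55, 3.81, 2.22 and 4.3 under PLX3397 and at 4.25, 4.07, 3.57, 4.9 and 4.66 at 5 day recovery, again with no treated library as high as the lowest control. Its log2 change under PLX3397 was -0.81 (SE 0.13, adjusted p = 0.0013). At 5 day recovery its log2 difference from control was -0.53 (SE 0.13, adjusted p = 0.059), which missed the limit, although it was called without SVZ control replicate 2 (-0.60, adjusted p = 0.042). Psmb9, the immunosubunit encoded beside Tap1, varied most among the control libraries relative to its mean, at 7.5, 3.25, 3.93, 2.14 and 4.43 FPKM, and was at 1.38, 1.64, 3.25, 2.34 and 3.15 under PLX3397 and 3.23, 2.56, 2.28, 2.18 and 2.83 at recovery. Its log2 differences from control of -0.61 (SE 0.22, adjusted p = 0.48) and -0.47 (SE 0.22, adjusted p = 0.30) did not pass.

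**Figure D1:**
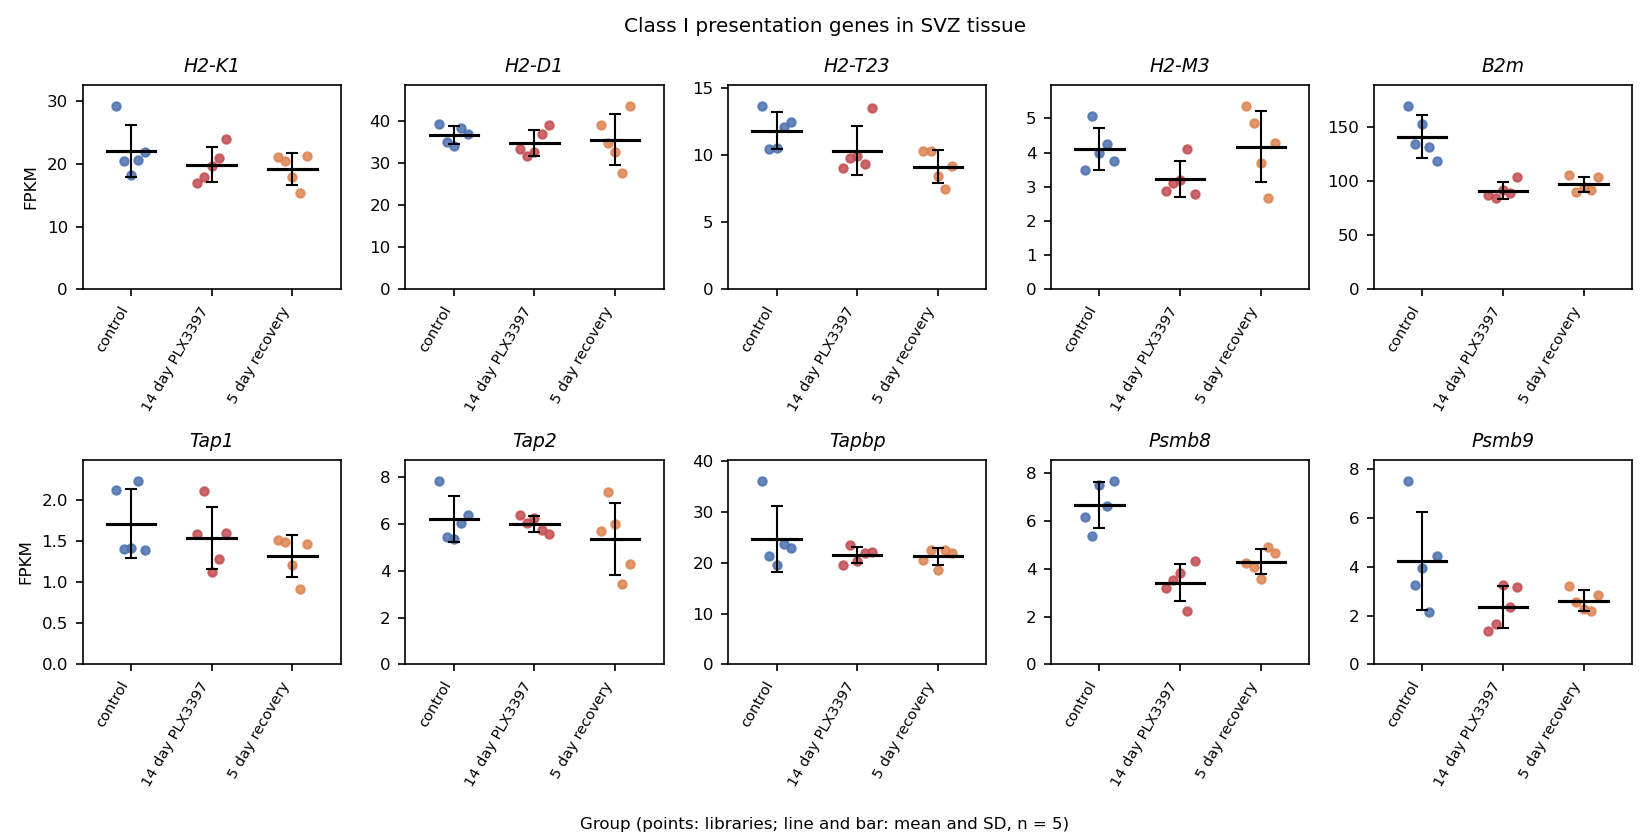
FPKM of the 10 class I presentation genes in SVZ libraries without treatment, under PLX3397 for 14 days and after 5 days of recovery (points, n = 5 each; line and bar, mean and SD; axes start at 0). B2m and Psmb8 are the panels in which no control point overlaps the points of either other group; H2-K1, H2-D1, Tap2 and Tapbp overlap in all groups.

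Among the heavy chains, H2-K1 ranged from 18.1 to 29.1 FPKM in control, 17 to 23.9 under PLX3397 and 15.3 to 21.2 at recovery. H2-D1, the other classical heavy chain of these mice, ranged from 34.2 to 39.4, 31.8 to 39.1 and 27.7 to 43.6 FPKM in the same order. H2-T23, which encodes Qa-1, a ligand of the inhibitory receptor NKG2A, was at 13.6, 10.5, 10.5, 12.1 and 12.4 FPKM in control and at 10.3, 10.3, 8.45, 7.46 and 9.14 at 5 day recovery, with no overlap. Its log2 difference of -0.34 (SE 0.11) had an adjusted p of 0.19. H2-M3, a heavy chain that presents formylated peptides, was at 4.1 ± 0.603 FPKM in control, 3.22 ± 0.522 under PLX3397 and 4.17 ± 1.04 at recovery. Tap1 (1.71, 1.54 and 1.31 FPKM), Tap2 (6.2, 5.98 and 5.35) and Tapbp (24.6, 21.5 and 21.3) overlapped in all 3 groups.

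Of the 10 genes, 2 were called lower under PLX3397, against 1.21% of the 14151 genes tested, and 1 was called lower at 5 day recovery, against 1.09%. The ranges did not overlap, with the treated group lower, for 2 genes under PLX3397 (1.92% of all genes) and for 3 at recovery (1.97%), which were B2m, Psmb8 and H2-T23. Between 5 day recovery and PLX3397 none of the 10 was called by limma, against 0.325% of all genes in either direction, with 1 of the 10 and 2338 of all genes at an unadjusted p under 0.05. The median log2 difference of the 10 from control was -0.17 under PLX3397 and -0.21 at recovery, beside 0.01 and -0.01 over all genes tested. In tissue, fewer cells of a type and less RNA per cell cannot be told apart. Microglia markers moved with the group (summed FPKM of 8 markers 184 to 249.8 in control, 13.2 to 16.9 under PLX3397 and 20.5 to 27.6 at recovery). So did the sum of border-associated macrophage markers (4 listed of 6, 3.48 to 7.39, 1.18 to 2.45 and 1.22 to 2.97), both without overlap with control. Within the macrophage list Cd163 stayed at 97.4% of its control mean under PLX3397, against 2.38% for Mrc1, 16.3% for Pf4 and 9.41% for Cbr2. The 1 listed monocyte marker was lower under PLX3397 without overlap (1.04 to 1.58 and 0.754 to 1.03 FPKM), and erythrocyte markers were higher at recovery (3 markers, 19.2 to 56.3 in control and 61.1 to 244). Endothelial markers overlapped (5 markers, 168 to 199, 143 to 189 and 149 to 209). The part of these lists in the results was not tested. Without SVZ control replicate 1, the library with choroid plexus transcripts, the log2 change under PLX3397 was -0.55 for B2m and -0.83 for Psmb8, both past the limit.

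Few other pathway genes passed in SVZ tissue. Under PLX3397 limma called 0 of 8 other class I heavy chains (0 at an unadjusted p under 0.05), 0 of 8 genes of peptide trimming and loading (4 unadjusted), 0 of 6 genes of the remaining immunosubunit and the proteasome activators (0 unadjusted), 0 of 3 constitutive catalytic subunits (0 unadjusted) and 0 of 11 other core subunits (0 unadjusted), where 866 of all genes had an unadjusted p under 0.05. At recovery it also called 0 in each of these lists, with 0, 4, 3, 1 and 2 genes unadjusted in the same order, against 2346 of all genes. Between recovery and PLX3397 the 1 call in these lists was Hspa5, the chaperone BiP, higher at recovery (261 ± 53.1 against 159 ± 19.2 FPKM, log2 difference 0.70, SE 0.12, adjusted p = 0.017), against the 0.325% of all genes called. Between these groups microglia and erythrocyte sums, given above (erythrocyte 29.6 to 40.7 FPKM under PLX3397), and astrocyte sums (1223 to 1340.1 under PLX3397 and 1345 to 2147 at recovery) were also higher at recovery without overlap, and their part in it was not tested. Among 14 regulators of class I genes tested, Irf8, a transcription factor of myeloid cells, was called lower in both comparisons with control, from 3.08 ± 0.804 FPKM in control to 0.405 ± 0.17 and 0.697 ± 0.306. Among 8 interferon receptor and kinase genes, Ifngr1, a chain of the interferon gamma receptor, fell by 0.44 under PLX3397 (adjusted p = 6.6e-04) and was lower by 0.38 at recovery (adjusted p = 0.0032).

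Sorted cells were compared next, first without LPS, to see whether the WM repopulating cells stand apart from control microglia at rest. No gene of the 10 passed the adjusted test, although all 10 had a higher mean in WM repopulating cells and the 4 heavy chains and B2m were separated from control in every library. H2-K1 was at 585, 451 and 492.7 FPKM in control and 928, 881, 725 and 927 in WM repopulating cells. H2-D1 was at 402, 344 and 366 and 649, 759, 641 and 792 FPKM. The lowest WM library lay above the highest control library for both.

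The log2 difference was 0.76 for H2-K1 (SE 0.27, adjusted p = 0.20) and 0.93 for H2-D1 (SE 0.32, adjusted p = 0.18), with the spread estimated over all 24 libraries. With only the 2 groups in the fit both were called (adjusted p = 0.0097 and 0.0017), together with H2-T23 (0.57, adjusted p = 0.022), and H2-K1 and H2-D1 were also called without control 6 hr replicate 2 and control 24 hr replicate 4 (adjusted p = 0.034 and 0.0092). Both alternatives leave the 2 group means as they are and change only the libraries that set the spread, on which the call depended. The shares of all genes called in these alternatives are not given here, and the share given below is that of the main fit.

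H2-T23 was at 88.9, 97.5 and 96.4 FPKM in control and 127, 137, 145 and 155 in WM repopulating cells, and H2-M3 at 62, 51.7 and 51.3 and 85.2, 84.3, 66.2 and 103. B2m was at 3458, 3669 and 3102 FPKM against 3900.3, 4421, 4405 and 4866, a log2 difference of 0.37 (SE 0.18, adjusted p = 0.43). These 3 genes also had no overlap between the groups. In contrast, Psmb8 (203 to 252 against 242 to 281 FPKM), Psmb9 (129 to 138 against 126 to 175) and Tapbp (243 to 261 against 255 to 297) overlapped, as did Tap1 (15.6 to 35.9 against 27.5 to 31) and Tap2 (32.9 to 53.9 against 53.2 to 60.8). Of the 10 genes, 5 had groups that did not overlap, with WM higher, against 7.61% of all genes, and 0 were called by limma against 1.21% of all genes in either direction, with 4 of the 10 and 1514 of 12684 genes at an unadjusted p under 0.05.

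B cell markers moved with the group, with 3 listed markers summing to 46.6 to 56.7 FPKM in control and 9.66 to 19.5 in WM repopulating cells, and T and NK cell markers the other way (7 markers, 11.8 to 35 against 37.1 to 58.9). Border-associated macrophage markers summed to 39 to 136 against 22.1 to 46.7. Choroid plexus markers (3 markers, 72.8 to 217 against 278 to 714) and endothelial markers (3 listed, 8.32 to 12.8 against 2.4 to 5.07) also did not overlap. Microglia (19089 to 22265 against 18156 to 21498) and neutrophil markers (1544 to 7224 against 2311 to 8804) overlapped. The part of these lists in the class I values was not tested. A further gene of the pathway passed in this comparison: H2-Q7, a nonclassical heavy chain, was at 2.8 ± 0.40 FPKM in control and 10.7 ± 1.5 in WM repopulating cells (log2 difference 1.62, SE 0.36, adjusted p = 0.025), the only call among 13 other heavy chains tested.

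**Figure D2:**
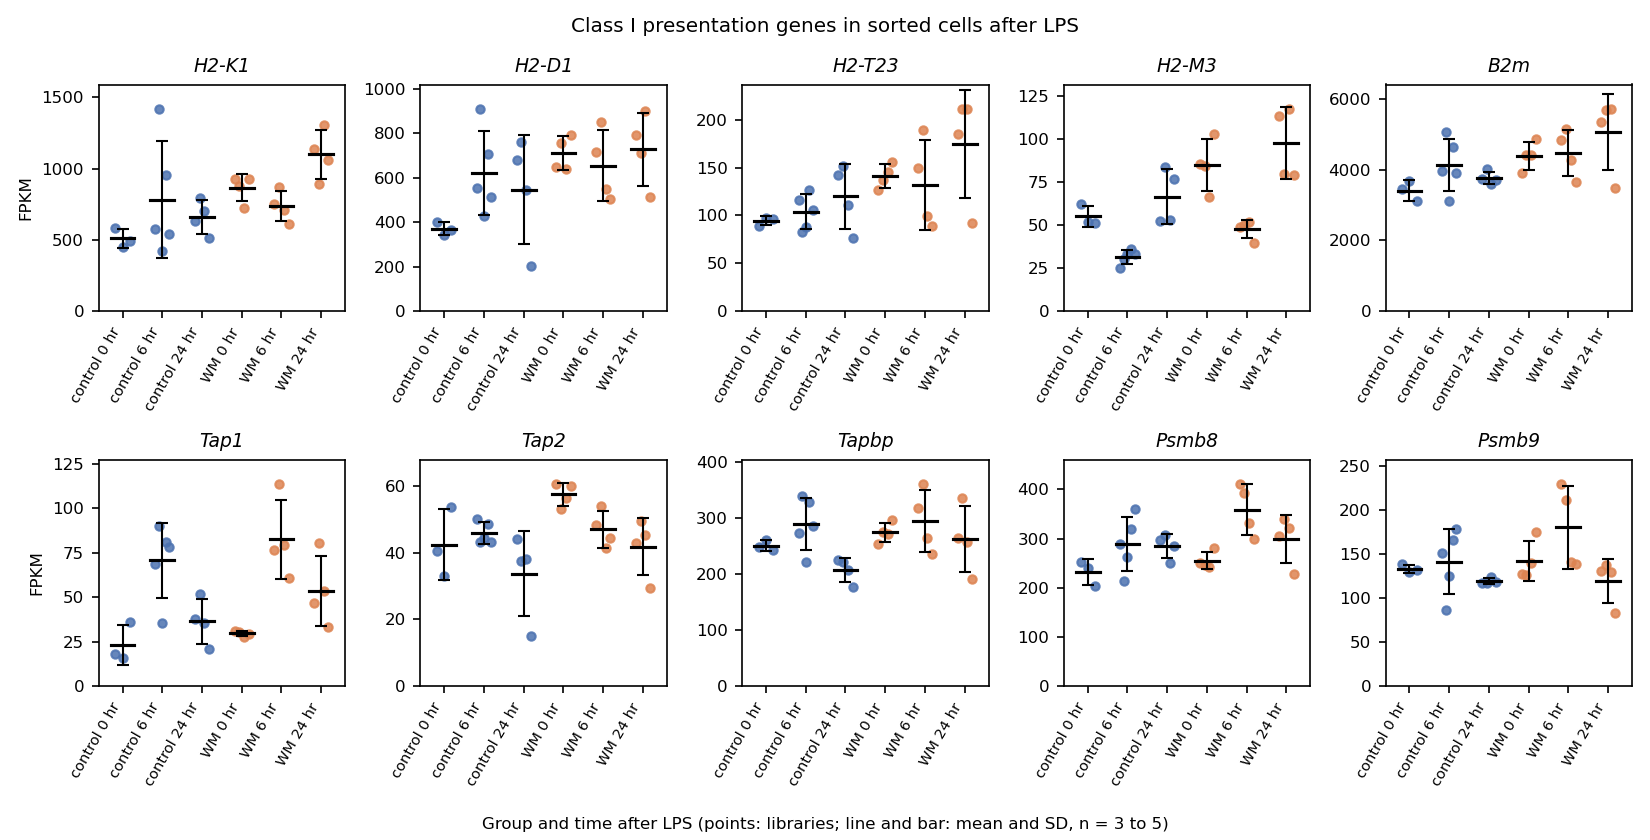
FPKM of the 10 class I presentation genes in sorted CD11b+CD45int cells of control mice and of WM repopulating mice at 0, 6 and 24 hr after LPS (points, libraries; line and bar, mean and SD, n = 3 to 5; axes start at 0). H2-M3 dips at 6 hr in both kinds of cells and Tap1 peaks at 6 hr, whereas the B2m points at 6 hr overlap those at 0 hr in both.

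LPS, a bacterial cell wall component that induces interferon and cytokine genes, was given to see how each kind of cell responds. At 6 hr Tap1 rose and H2-M3 fell in control microglia and in WM repopulating cells, and Psmb8 rose in WM repopulating cells. Tap1, a chain of the peptide transporter, was at 17.7, 15.6 and 35.9 FPKM in control microglia at 0 hr and at 68.9, 90.1, 35.2, 81.2 and 78 at 6 hr. WM repopulating cells had 31, 30.5, 27.5 and 29.4 and then 76.3, 114, 79.1 and 61.1. The WM libraries were fully separated, while in control cells the 0 hr replicate 3 (35.9) lay just above the lowest 6 hr library.

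Tap1 rose by 1.60 log2 units in control microglia (SE 0.31, adjusted p = 2.0e-04) and by 1.41 in WM repopulating cells (SE 0.30, adjusted p = 5.9e-04). Its partner Tap2 passed in neither kind of cell, although in WM repopulating cells it was called lower with only the 2 groups in the fit (adjusted p = 0.048). Tap2 was at 40.7, 32.9 and 53.9 and then 50.2, 43.3, 44.5, 48.8 and 43.2 FPKM in control cells (log2 difference 0.14, SE 0.23, adjusted p = 0.67) and at 60.8, 53.2, 56.5 and 60.0002 and then 48.4, 54, 41.3 and 44.4 in WM repopulating cells (-0.29, SE 0.23, adjusted p = 0.32). Mean Tap1 thus lay below mean Tap2 at 0 hr and above it at 6 hr in both kinds of cells.

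H2-M3 went the other way. It was at 62, 51.7 and 51.3 FPKM at 0 hr and 24.9, 30.003, 33, 35.7 and 33 at 6 hr in control microglia, and at 85.2, 84.3, 66.2 and 103 and 48.9, 50.1, 51.4 and 39.7 in WM repopulating cells. No 6 hr library reached the lowest 0 hr library of its kind. H2-M3 fell by 0.80 in control (SE 0.18, adjusted p = 8.9e-04) and by 0.81 in WM repopulating cells (SE 0.17, adjusted p = 6.5e-04), almost the same size. At 24 hr it was at 52.5, 83.9, 53.1 and 76.4 and 113, 79.5, 117 and 79.3 FPKM and had risen from 6 hr by 1.04 in control (SE 0.16, adjusted p = 5.1e-05) and by 1.0 in WM repopulating cells (SE 0.17, adjusted p = 3.2e-04). Against 0 hr, its 24 hr differences of 0.24 (adjusted p = 0.39) and 0.19 (adjusted p = 0.48) did not pass.

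The classical heavy chains spread widely at 6 hr in control microglia. H2-K1 was at 575, 1421, 420.3, 952 and 539.9 FPKM and H2-D1 at 555, 911, 429, 705 and 514, where the highest value of each is control 6 hr replicate 2. At 6 hr in WM repopulating cells they were at 754, 873, 707 and 613 and 716, 849, 548 and 506 FPKM, levels that overlapped 0 hr, whereas in control microglia H2-D1 at 6 hr lay above every 0 hr library. The log2 differences from 0 hr were 0.48 and 0.70 in control (adjusted p = 0.14 and 0.068) and -0.24 and -0.14 in WM repopulating cells (adjusted p = 0.49 and 0.74). Without control 6 hr replicate 2 and control 24 hr replicate 4 the H2-K1 difference in control was 0.23 (adjusted p = 0.36). H2-D1 was called higher in control microglia without control 6 hr replicate 2 and control 24 hr replicate 4 (0.55, adjusted p = 0.025), together with Psmb8 (0.40, adjusted p = 0.026). H2-D1 was also called with only the 2 groups in the fit (adjusted p = 0.031).

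H2-T23 (82.8 to 126 FPKM in control and 88.4 to 189 in WM repopulating cells at 6 hr), B2m (3121 to 5058 and 3664 to 5158) and Tapbp (222 to 339 and 237 to 362) overlapped their 0 hr groups. Psmb8 was at 252, 241 and 203 and then 288, 214, 263, 319 and 360.5 FPKM in control and at 251, 246, 242 and 281 and then 412, 393, 331 and 299.6 in WM repopulating cells. It rose by 0.48 in WM repopulating cells (SE 0.15, adjusted p = 0.014), a call that was lost without WM 6 hr replicate 1 (0.41, adjusted p = 0.051). In control cells its difference was 0.30 (SE 0.16, adjusted p = 0.13). Psmb9 was at 151, 86.5, 125, 166 and 178 FPKM in control and 229.8, 211, 141 and 138 in WM repopulating cells at 6 hr, overlapping 0 hr in both.

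The calls among the 10 genes at 6 hr were 1 higher and 1 lower in control microglia, where 21.4% of all genes were called higher and 21.1% lower. In WM repopulating cells they were 2 higher and 1 lower, against 19.3% and 19.5% of all genes. The median log2 difference of the 10 was 0.23 in control and -0.06 in WM repopulating cells, beside 0.01 and 0.00 over all genes. A change at 6 hr was thus common among all genes, and the share of the 10 genes called was no greater. Monocyte markers were also higher at 6 hr (5 markers, 101 to 324 FPKM at 0 hr and 1150.2 to 2273 at 6 hr in control, 122 to 385 and 1149.7 to 3192 in WM repopulating cells), as were T and NK cell markers (50.1 to 209.9 and 72.4 to 197), and microglia markers were lower (6735 to 8888 and 7309 to 8762 at 6 hr). B cell markers were also lower at 6 hr, as H2-M3 was (46.6 to 56.7 and 5.0 to 13.3 FPKM at 0 and 6 hr in control, 9.66 to 19.5 and 2.6 to 9.46 in WM repopulating cells), and so were border-associated macrophage markers (39 to 136 and 13.3 to 26.3 in control, 22.1 to 46.7 and 10.3 to 13.9 in WM repopulating cells). None of these 5 lists overlapped between 0 and 6 hr in either kind of cell. For WM repopulating cells, astrocyte (1.22 to 3.15 and 5.53 to 7.8) and endothelial sums (2.4 to 5.07 and 5.25 to 6.88) were also higher at 6 hr and oligodendrocyte sums lower (37.5 to 55.8 and 28.5 to 30.9), without overlap. The part of these lists in the 6 hr results was not tested.

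At 24 hr none of the 10 genes was called against 0 hr by limma in control microglia, where 21.3% of all genes were called in either direction (0 of the 10 and 4247 genes at an unadjusted p under 0.05), or in WM repopulating cells, with 18.8% of all genes (2 of the 10 and 3976 genes unadjusted). Tap1 was at 37.7, 51.9, 35.3 and 20.9 FPKM in control and 46.7, 80.5, 53.7 and 33.3 in WM repopulating cells at 24 hr. Against 0 hr its log2 differences were 0.67 (adjusted p = 0.15) and 0.77 (adjusted p = 0.078). Both were called without control 6 hr replicate 2 and control 24 hr replicate 4 (0.90, adjusted p = 0.044, and 0.77, adjusted p = 0.043). The WM comparison holds neither of these libraries, so only its estimate of spread changed. Without control 0 hr replicate 3 the control difference of Tap1 was 1.02 and was called (adjusted p = 0.045). In WM repopulating cells Tap2 lay on the other side of its 0 hr level from Tap1, at 43.1, 49.5, 45.3 and 29.6 FPKM and below every 0 hr library (-0.47, SE 0.23, adjusted p = 0.15). With only the 2 groups in the fit both Tap1 (adjusted p = 0.019) and Tap2 (0.039) were called in WM repopulating cells. Tap2 too was called there without control 6 hr replicate 2 and control 24 hr replicate 4 (-0.47, adjusted p = 0.019), again through the spread alone. In control microglia Tapbp, given next, and Psmb9 (116, 117, 124 and 118 FPKM, -0.16, SE 0.22, adjusted p = 0.65) lay below all 0 hr libraries at 24 hr. H2-D1 at 24 hr in control was at 680.4, 761, 546 and 201 FPKM, and the lowest of these values is control 24 hr replicate 4. Without that library and control 6 hr replicate 2, H2-D1 was called higher than at 0 hr (0.82, adjusted p = 0.0057, against 0.40 and 0.40 with them).

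From 6 to 24 hr in control microglia, 1 of the 10 genes was called higher (H2-M3, above) and 2 lower, Tap1 and Tapbp, against 15% and 13.3% of all genes. Tap1 fell by 0.94 (SE 0.28, adjusted p = 0.016). Tapbp, at 274, 339, 222, 328 and 286 FPKM at 6 hr and 225, 221, 208 and 178 at 24 hr, fell by 0.47 (SE 0.15, adjusted p = 0.021). Without control 6 hr replicate 2 and control 24 hr replicate 4 the Tap1 difference was -0.60 (adjusted p = 0.16). The calls of Tap1 and Tapbp were both lost without control 24 hr replicate 4 alone (adjusted p = 0.08 and 0.068), and that of Tapbp also without control 6 hr replicate 2 (0.053) or control 6 hr replicate 4 (0.056). In WM repopulating cells H2-M3 was the only one of the 10 called higher with all libraries in the fit, against 8.19% of all genes. There Psmb9 was at 130.0, 137, 129 and 82.5 FPKM at 24 hr, with no overlap with 6 hr (log2 difference -0.58, SE 0.20, adjusted p = 0.052), and H2-K1 at 1137, 894, 1307 and 1060.5, above every 6 hr library (0.58, SE 0.25, adjusted p = 0.12). Without control 6 hr replicate 2 and control 24 hr replicate 4 both were called (adjusted p = 0.017 for Psmb9 and 0.025 for H2-K1), and H2-K1 also with only the 2 groups in the fit (0.022). These refits left the differences as they were and changed only the spread.

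Markers of cell types moved over these intervals too. From 6 to 24 hr in control microglia, neutrophil (792 to 4957 and 5742 to 14625 FPKM), B cell (5.0 to 13.3 and 26.8 to 35.5), border-associated macrophage (13.3 to 26.3 and 45.7 to 52.9) and microglia sums (6735 to 8888 and 9604 to 12996) were higher and monocyte (1150.2 to 2273 and 426 to 542), choroid plexus (95.3 to 1353 and 35.1 to 51.7) and neuron sums (3.14 to 5.05 and 1.11 to 3.09) lower, without overlap. Microglia sums of WM repopulating cells were higher at 24 than at 6 hr (7309 to 8762 and 9597 to 12811), and monocyte (1149.7 to 3192 and 126 to 650.0), choroid plexus (156 to 596 and 10.2 to 31.9) and astrocyte sums (5.53 to 7.8 and 2.03 to 3.79) lower, without overlap. Against 0 hr, the 24 hr sums of microglia, B cell and choroid plexus markers were lower without overlap in both kinds of cells, and monocyte, T and NK cell and astrocyte sums were higher in control and oligodendrocyte sums lower in WM repopulating cells. The part of these lists in the results was not tested.

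WM repopulating cells were also compared with control microglia at each time after LPS. At 6 hr none of the 10 was called, against 0.323% of all genes, with 2 of the 10 and 1164 genes at an unadjusted p under 0.05. H2-M3, at 24.9 to 35.7 FPKM in control and 39.7 to 51.4 in WM repopulating cells, was the 1 gene of the 10 whose groups did not overlap, against 2.11% of all genes with WM higher (log2 difference 0.59, SE 0.16, adjusted p = 0.14). At 24 hr none was called against 3.97% of all genes, with 3 of the 10 and 2238 genes unadjusted. H2-K1 was at 629, 794, 701 and 514 FPKM in control and 1137, 894, 1307 and 1060.5 in WM repopulating cells, with a log2 difference of 0.74 (SE 0.25, adjusted p = 0.10). It was the 1 gene of the 10 without overlap, against 5.76% of all genes. Without control 6 hr replicate 2 and control 24 hr replicate 4 the H2-K1 difference was 0.63 (adjusted p = 0.070). The H2-D1 difference was then 0.12 (adjusted p = 0.81), against 0.55 with all libraries (adjusted p = 0.35). H2-M3 had a difference of 0.55 (SE 0.17, adjusted p = 0.074), and B2m one of 0.40 (SE 0.17, adjusted p = 0.20), with B2m at 3727, 4019, 3595 and 3712 FPKM in control and 5362, 5694, 5728 and 3483 in WM repopulating cells. The low B2m value is WM 24 hr replicate 4, the lowest of its group for 9 of the 10 genes (all but H2-K1), and without it the B2m difference was called (0.57, adjusted p = 0.047). H2-M3 was called without control 24 hr replicate 2 (0.67, adjusted p = 0.039).

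Markers of other cells moved with the group at 24 hr. Without overlap, B cell (26.8 to 35.5 FPKM in control and 6.38 to 9.01 in WM repopulating cells), border-associated macrophage (45.7 to 52.9 and 12.7 to 29.4), endothelial (7.57 to 12.7 and 1.51 to 7.19), choroid plexus (35.1 to 51.7 and 10.2 to 31.9), astrocyte (5.42 to 11.9 and 2.03 to 3.79) and neuroblast sums (3.52 to 7.09 and 1.35 to 1.95) were lower in WM repopulating cells. Neutrophil sums (5742 to 14625 and 2766 to 5953) and microglia sums (9604 to 12996 and 9597 to 12811) overlapped. The part of these lists in the 24 hr differences was not tested.

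The responses themselves were set against each other in a test of the WM response minus the control response. At 6 hr none of the 10 passed with limma, against 0.0237% of all genes, and at 24 hr none passed, against 0.0867%. In both tests 0 of the 10 had an unadjusted p under 0.05, and 913 and 1105 of all genes did. For Tap1 the difference of responses was -0.19 at 6 hr (SE 0.43, adjusted p = 0.95), and for H2-M3 it was -0.01 (SE 0.25, adjusted p = 0.99). The values of H2-K1 (-0.72, SE 0.36) and H2-D1 (-0.84, SE 0.42) lay farthest from 0, with an adjusted p of 0.70 for each. Without control 6 hr replicate 2 and control 24 hr replicate 4 the difference of responses at 6 hr was -0.47 for H2-K1 (adjusted p = 0.66) and -0.08 for Tap1 (adjusted p = 0.98). For H2-D1 it was then -0.69 at 6 hr (adjusted p = 0.45). At 24 hr the H2-D1 difference of responses was -0.81 without them (adjusted p = 0.19) and -0.39 with all libraries (adjusted p = 0.85).

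**Figure D3:**
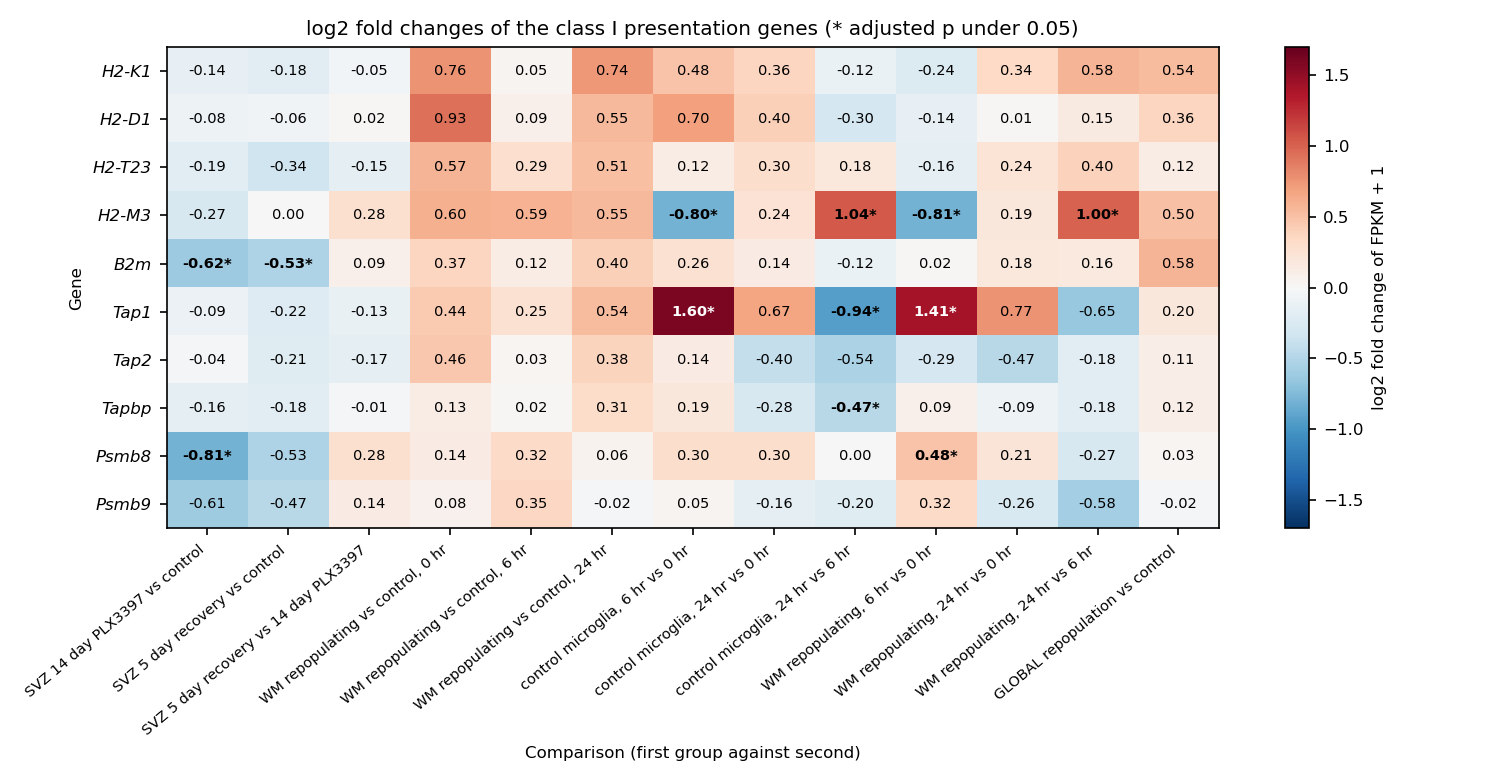
log2 fold changes on the FPKM + 1 scale of the 10 genes (rows) in 13 comparisons (columns, first group against second), with an asterisk where the adjusted p of limma was under 0.05. Calls lie in B2m and Psmb8 for SVZ tissue and in H2-M3, Tap1, Tapbp and Psmb8 for LPS, and the columns of WM repopulating cells against control hold none.

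Regulators of class I genes were among those that changed with LPS. Of the 15 in the list tested, 8 were called higher and 2 lower in control microglia at 6 hr, beside 21.4% and 21.1% of all genes, and 7 and 4 in WM repopulating cells, beside 19.3% and 19.5%. Nlrc5, the transactivator of class I promoters, went from 1.86 ± 0.619 to 7.39 ± 0.994 FPKM in control (1.57, SE 0.22, adjusted p = 3.2e-06) and from 2.45 ± 0.492 to 10.9 ± 1.91 in WM repopulating cells (1.78, SE 0.21, adjusted p = 4.0e-07). At 24 hr it was at 4.2 ± 1.53 FPKM in control and 8.61 ± 2.49 in WM repopulating cells, and this gap was called (0.90, SE 0.21, adjusted p = 0.015). Irf7, an amplifier of interferon genes, had the largest rise of the list at 6 hr, to 283 ± 80.8 FPKM from 8.24 ± 5.04 in control and to 324 ± 103 from 14.6 ± 2.11 in WM repopulating cells. Irf8 fell by 0.92 and 0.78 (adjusted p = 0.0027 and 0.0084).

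Of 13 other class I heavy chains tested, 4 were called higher and 4 lower in control microglia at 6 hr, and 1 and 4 in WM repopulating cells. The shares of all genes called higher and lower were 21.4% and 21.1% in control and 19.3% and 19.5% in WM repopulating cells, so counts such as 1 of 13, or the 2 of 8 given next, lie near that background. H2-T22, a nonclassical heavy chain seen by some gamma delta T cells, rose by 1.68 in control and 1.86 in WM repopulating cells (adjusted p = 2.2e-05 and 4.7e-06). Mr1, which presents vitamin metabolites to MAIT cells, fell by 1.85 and 1.0 (adjusted p = 1.6e-06 and 0.0017). Fcgrt, the heavy chain of the neonatal Fc receptor, fell by 1.01 and 0.59 (adjusted p = 6.2e-05 and 0.0088). Among 8 genes of peptide trimming and loading, 2 rose in control and 3 in WM repopulating cells at 6 hr, among them Erap1, the trimming aminopeptidase (0.68 and 0.50, adjusted p = 0.005 and 0.034). At 24 hr against 0 hr, 4 were called higher in control, among them the chaperone Calr (1.21, adjusted p = 0.0023) and the disulfide isomerase Pdia3 (0.92, adjusted p = 0.0017), and 1 in WM repopulating cells, Tpp2 (0.68, adjusted p = 0.0011), where 12.1% and 10.5% of all genes were called higher. Of 8 interferon receptor and kinase genes, 3 were called higher and 1 lower in control at 6 hr, and 3 and 2 in WM repopulating cells, the higher ones including Jak1 (0.88 and 0.67, adjusted p = 3.4e-05 and 6.1e-04) and the feedback inhibitor Socs1 (1.36 and 1.16, adjusted p = 0.0019 and 0.0058).

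Some constitutive proteasome genes rose as well, at a time when 21.4% of all genes in control and 19.3% in WM repopulating cells were called higher. At 6 hr the constitutive catalytic subunits Psmb5, Psmb6 and Psmb7 all rose in control (by 0.78, 0.43 and 0.71 on the log2 scale) and in WM repopulating cells (0.56, 0.68 and 0.67), with adjusted p of 5.8e-04, 0.022, 1.4e-04, 0.0082, 5.9e-04 and 2.0e-04. Of 11 other core subunits, 6 were called higher in control and 10 in WM repopulating cells, led by Psma6 (1.40 and 1.72, adjusted p = 4.3e-07 and 1.6e-08). The remaining immunosubunit Psmb10 rose by 0.62 and 0.73 (adjusted p = 0.004 and 8.5e-04), and the activator subunits Psme1 (0.90 and 0.82) and Psme2 (1.13 and 1.25) rose in both kinds of cells (adjusted p = 2.5e-06, 7.0e-06, 1.1e-05 and 2.4e-06). Psmb9 was not called at 6 hr in either kind of cell (0.05, adjusted p = 0.88, and 0.32, adjusted p = 0.22), and without control 6 hr replicate 2 and control 24 hr replicate 4 its difference in control was 0.21 (adjusted p = 0.38).

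Ratios of each immunosubunit to the constitutive subunit it replaces are given per library as a description. Psmb8 to Psmb5 was 5.5 to 8.54 in control microglia at 0 hr, 3.51 to 6.45 at 6 hr and 4.99 to 8.1 at 24 hr. In WM repopulating cells it was 6.38 to 9.94, 6.43 to 7.14 and 7.46 to 9.19. Psmb8 thus stood several times above Psmb5 in every library of sorted cells in this experiment. Psmb9 to Psmb6 had medians of 0.646, 0.564 and 0.453 in control and 0.909, 0.726 and 0.578 in WM repopulating cells, and so was lowest at 24 hr in both. Psmb10 to Psmb7 had medians between 1.55 (control 24 hr) and 2.21 (WM 24 hr).

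In SVZ tissue the same ratios were far lower. Psmb8 to Psmb5 was 0.0528 to 0.0735 in control, 0.0217 to 0.0357 under PLX3397 and 0.0301 to 0.0652 at 5 day recovery. The PLX3397 libraries lay below all control libraries, while recovery overlapped both. Psmb9 to Psmb6 was 0.00809 to 0.0297, 0.00502 to 0.0123 and 0.00557 to 0.0108, and Psmb10 to Psmb7 was 0.188 to 0.353, 0.237 to 0.28 and 0.223 to 0.307, with overlap throughout. Psmb10 itself was at 33.2 ± 5.35 FPKM in control SVZ tissue and 37.5 ± 4.07 under PLX3397, with overlap.

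**Figure D4:**
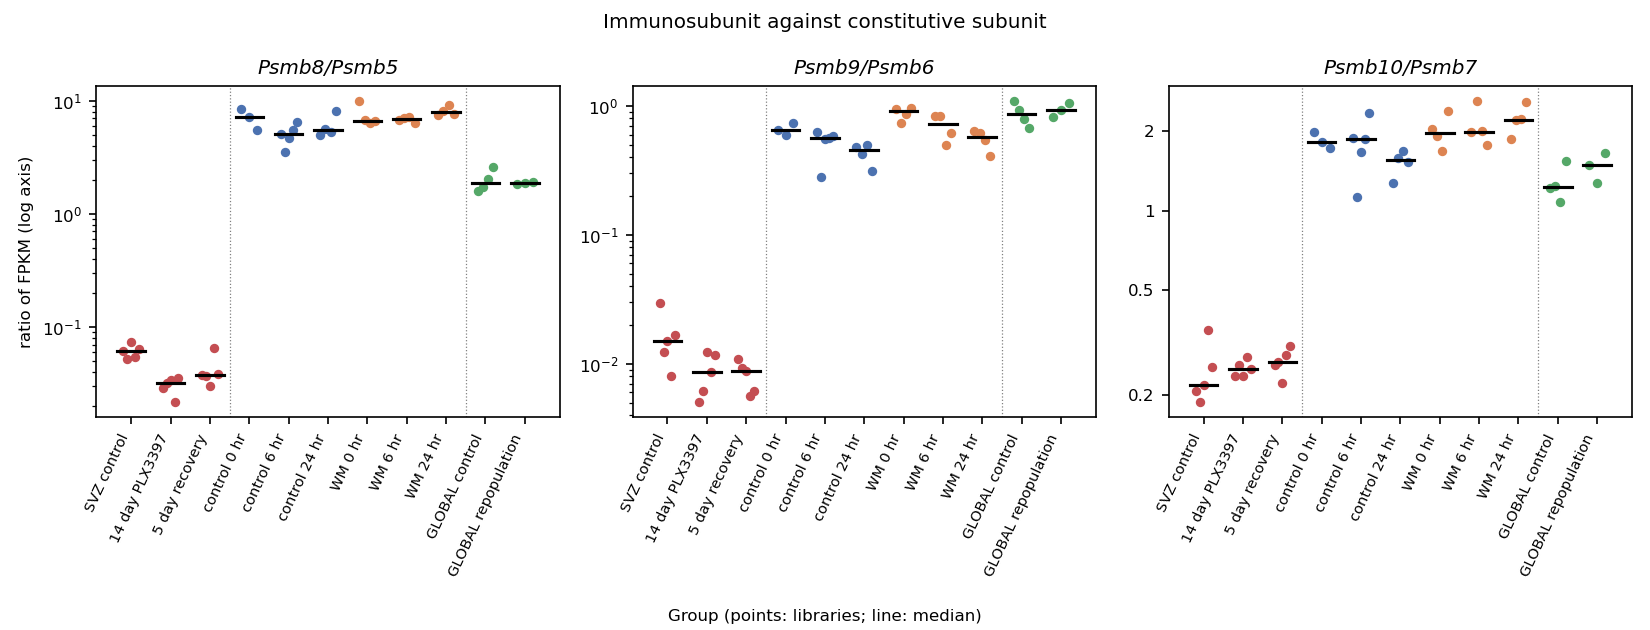
Ratio of FPKM of Psmb8 to Psmb5, Psmb9 to Psmb6 and Psmb10 to Psmb7 in every library (points) with group medians (lines) on log axes; dotted lines part the 3 experiments. In SVZ tissue the control Psmb8 to Psmb5 points (0.0528 to 0.0735) lie above the PLX3397 points (0.0217 to 0.0357), and the sorted cells lie well above all SVZ libraries for each ratio.

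GLOBAL repopulated cells were compared with control microglia to see whether cells that return after the shorter treatment differ. None of the 10 genes was called, and limma called 0 of 16651 genes (0%), with 1504 of all genes and 4 of the 10 at an unadjusted p under 0.05. H2-K1 was at 409, 383, 412 and 439 FPKM in control and 546, 613 and 639 in GLOBAL repopulated cells. B2m was at 1992, 1977, 2169 and 1801 and 2382, 3191 and 3407, and H2-M3 at 32.3, 32.1, 37.1 and 36.3 and 38.9, 51.1 and 58.8. For these 3 genes every GLOBAL library was above every control library, against 5.83% of all genes with groups that did not overlap in that direction.

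Their log2 differences were 0.54 (SE 0.13, adjusted p = 0.28), 0.58 (SE 0.18, adjusted p = 0.38) and 0.50 (SE 0.16, adjusted p = 0.42). H2-D1 was at 324, 248, 277 and 369 in control and 365, 424 and 377 FPKM in GLOBAL repopulated cells, with 1 control library inside the range of the GLOBAL libraries (0.36, SE 0.16, adjusted p = 0.54). H2-T23 (112 to 136 and 114 to 145 FPKM), Tap1 (21.7 to 34.6 and 28.1 to 34.5), Tap2 (39.9 to 59.4 and 48 to 55.1), Tapbp (125 to 194 and 143 to 158), Psmb8 (105 to 149 and 109 to 134) and Psmb9 (52.8 to 72.4 and 49.9 to 69.5) overlapped. Neutrophil markers, 5 in number, summed to 19613, 12165, 2289 and 1729.9 FPKM in the control libraries and 3985, 2409.6 and 1108 in the GLOBAL libraries, B cell markers to 16.4 to 33.4 and 12.9 to 14.8, border-associated macrophage markers to 26.9 to 38.9 and 15.1 to 19.3, and astrocyte markers to 4.27 to 5.38 and 2.5 to 3.54. B cell, border-associated macrophage and astrocyte markers did not overlap between the groups, and their part in the values was not tested.

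Side by side, without LPS, H2-K1, H2-M3 and B2m lay above control in every library of both kinds of repopulated cells, and none passed the adjusted test. H2-K1 was higher by 0.76 in WM repopulating and 0.54 in GLOBAL repopulated cells, H2-M3 by 0.60 and 0.50, and B2m by 0.37 and 0.58. The other heavy chains had no overlap in WM repopulating cells alone, where H2-D1 differed by 0.93 and H2-T23 by 0.57, and they overlapped in GLOBAL repopulated cells, at 0.36 and 0.12. Psmb8 and Psmb9 differed by 0.14 and 0.08 in WM repopulating cells, and by 0.03 and -0.02 in GLOBAL repopulated cells. The 2 experiments have separate controls and tables, and the differences were not tested against each other.

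**Figure D5:**
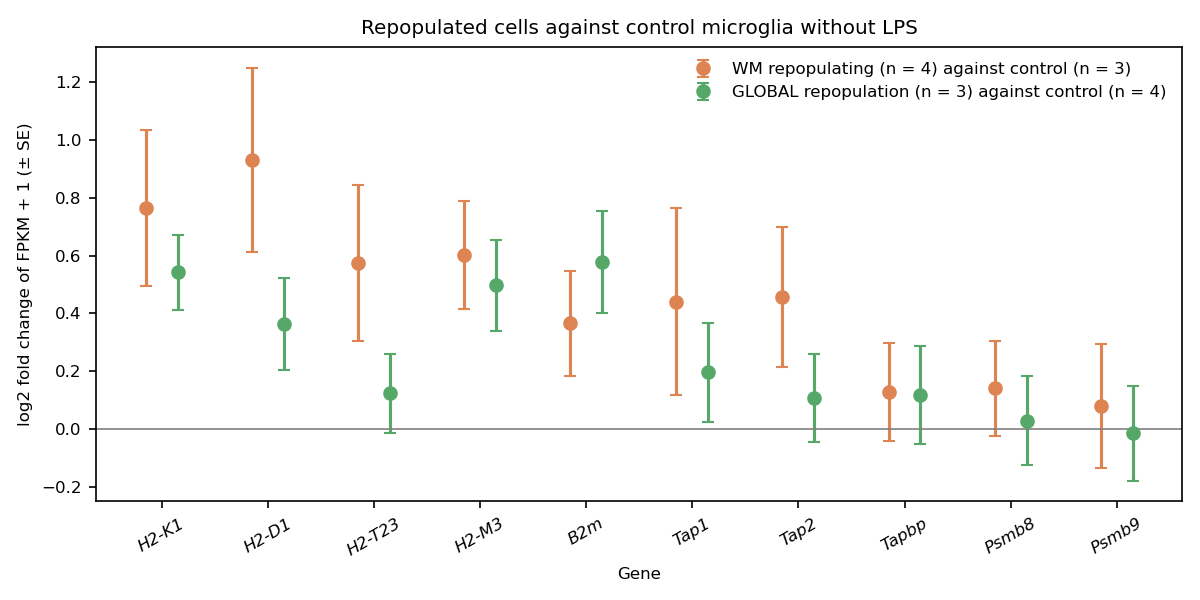
log2 fold changes (± SE) on the FPKM + 1 scale of the 10 genes in WM repopulating cells against control at 0 hr (n = 4 and 3) and in GLOBAL repopulated cells against control (n = 3 and 4). H2-K1, H2-D1 and H2-M3 lie highest for the WM cells and H2-K1, H2-M3 and B2m for the GLOBAL cells, while Psmb8 and Psmb9 lie near 0 in both; no point passed the adjusted test.

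The genes whose profile over the 24 sorted libraries of the LPS experiment was most like the mean of the 10 were found among 7952 genes with a mean of at least 5 FPKM, by the root mean square difference of z-scored log2 values. Among them were Tapbpl (0.53 SD units), Itgb2 (0.68), Trafd1 (0.70) and P2rx4 (0.70). Tapbpl, the tapasin-like peptide editor, ranged from 22.8 to 79.9 FPKM over these libraries, and Itgb2, the integrin beta chain that pairs with CD11b, from 228 to 456.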

How the data were processed

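Libraries were prepared by Smart-seq2 and Nextera per the study's methods, whereas the labels describe preparation by a commercial provider. The authors aligned reads with STAR, counted them with featureCounts and deposited 1 table of FPKM values for each of the 3 experiments (the methods say RPKM; mm10 in the submitters' processing notes, the chromosomes of GRCm38). Versions were not given in the sources used here. Some gene symbols that a spreadsheet had turned into dates (25) were restored from gene IDs.

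Depth was recovered from the steps of low FPKM values, which gave whole reads, to within 0.01 read in every library, for 99.6% to 100% of the low genes examined. Genes with at least 1 FPKM in at least 3 libraries of a table were kept (14151, 12684 and 16651), and all 10 members passed. log2(FPKM + 1) was fitted with limma 3.58.1 (R 4.3.3; eBayes with trend, 1 coefficient per group, all libraries of the experiment), 2-sided, with Benjamini-Hochberg adjustment over all genes tested and a limit of 0.05. Contrasts were made only within a table. Scripts were tested on simulated data. The labels do not say for every group that libraries came from separate mice, so p-values measure the spread between these libraries.

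Members and pathway lists were chosen with earlier results of these data known. All 10 members are named. Of each list the members past the limit with the largest change are named, with some of known role chosen after their values were seen (Nlrc5, Irf8, Psmb10, Psme1, Fcgrt, Erap1, Pdia3, Jak1, Tpp2), as are the most similar genes by root mean square difference; some genes that the rule would name are not reported here. Groups sharing replicate numbers were checked for pairing: 5 of 15, 7 of 55 and 2 of 3 pairs of groups and numbers had a correlation over 0.1. The highest were 0.49 in SVZ tissue, 0.27 in the LPS experiment and 0.14 in the GLOBAL experiment. Whether the numbers pair samples is thus not settled, and the main fit did not pair them. Alternatives were the pseudocount, filter, scaling, trend, fold limit, samples in the fit, replicate block and leaving out libraries.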

Additional observations from a re-analysis of the deposited data

Results flagged for a closer look

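In 90 sets of 4 or 5 libraries (10 genes in the groups of that size), 6 had a library whose gap to the nearest other exceeded Dixon's 95% limit; chance gives about 1 in 20 such sets.

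In WM repopulating cells at 24 hr, replicate 4 was lowest for B2m, at 3483.41 FPKM against 5362 to 5728 in the other libraries, and for Psmb9, at 82.5193 FPKM against 129 to 137. This library was the lowest of its group for 9 of the 10 genes, all but H2-K1, and WM 6 hr replicate 4 was likewise the lowest of its own group for 9.

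In GLOBAL control cells, replicate 4 was highest for Tapbp, at 193.986 FPKM against 125 to 127, and for Psmb8, at 149.494 FPKM against 105 to 112.

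In SVZ control tissue, replicate 1 was highest for Tapbp, at 35.9408 FPKM against 19.5 to 23.6, and under PLX3397 replicate 5 was highest for H2-T23, at 13.5063 FPKM against 9.04 to 9.89.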

How the results depend on the processing

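Of the 12 calls among the 10 genes (5 distinct genes), 199 fold changes were recomputed under alternatives, of which 192 kept direction and call, 7 lost the call and 0 reversed. The losses were Tapbp from 6 to 24 hr in control (4), Tap1 there (2) and Psmb8 at 6 hr in WM repopulating cells (1). Scaling, pseudocount, filter and trend cost none of the calls. An added fold limit of 1 left 0 genes under PLX3397 and 0 at recovery in SVZ tissue, 1 in control at 6 hr, 1 in control from 6 to 24 hr and 1 in WM repopulating cells at 6 hr.

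Median-ratio scaling gave 2 calls at SVZ recovery (Psmb8 added, adjusted p = 0.0498) and 2 in WM repopulating cells from 6 to 24 hr. Quantile normalization gave 2 in the latter (Psmb9 added) and 1 in control at 24 hr against 0 hr (Tapbp, adjusted p = 0.045). With only the groups compared, there were 3 calls for WM repopulating cells against control at 0 hr, 3 for control at 6 hr (H2-D1 added, 0.70, adjusted p = 0.031), 4 for WM at 6 hr (Tap2 added, lower, -0.29, adjusted p = 0.048), 2 for WM at 24 hr against 0 hr and 2 for WM from 6 to 24 hr. Without control 6 hr replicate 2 and control 24 hr replicate 4, an alternative chosen after seeing the data, calls numbered 2 for WM against control at 0 hr, 4 for control at 6 hr, 2 for control at 24 hr against 0 hr, 1 for control from 6 to 24 hr, 2 for WM at 24 hr against 0 hr and 3 for WM from 6 to 24 hr. Leaving out 5 day recovery replicates 4 and 5, also chosen after seeing the data, moved no count. The shares of all genes called under these alternatives, and with 1 library left out, are not given here. Such counts therefore have no background beside them.

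Leaving out 1 library at a time gave 1 to 2 calls at SVZ recovery (2 without SVZ control replicate 2), 2 to 4 in control at 6 hr, 0 to 1 in control at 24 hr against 0 hr, 1 to 4 in control from 6 to 24 hr, 0 to 1 for WM against control at 24 hr, 0 to 1 for WM at 24 hr against 0 hr and 1 to 2 for WM from 6 to 24 hr. In control at 6 hr, H2-K1 (adjusted p = 0.028) and H2-D1 (0.037) were added without control 6 hr replicate 3. At 24 hr against 0 hr, control added Tap1 without control 0 hr replicate 3 (1.02, adjusted p = 0.045) and H2-D1 without control 24 hr replicate 4 (0.017), and WM added Tap1 without WM 24 hr replicate 4 (0.038). From 6 to 24 hr control added Tap2 without control 24 hr replicate 1 (0.023), and WM added Psmb9 without WM 6 hr replicate 3, WM 6 hr replicate 4 or WM 24 hr replicate 2. The cause was not tested.

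It is not settled that the replicate numbers pair samples. With the replicate number as a block, calls were 2 under PLX3397 in SVZ tissue (B2m -0.62, adjusted p = 0.0033). They were 3 in control at 6 hr (H2-D1 added, 0.87, adjusted p = 0.024), and no other call among the 10 changed. For GLOBAL repopulation the block called 0 of the 10 and 55 of all genes. Counting error limits the SVZ values most: their libraries were not the shallowest, but the genes were low in tissue and one could rest on 10 reads.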
